A study of Mus musculus with 6 samples.

Results

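Myc and a set of ribosome biogenesis genes were examined in lymphoid progenitors of mice treated to delete osteocalcin-expressing cells and of control mice. The genes were the transcription factor gene Myc, the nucleolar genes Ncl and Npm1, the RNA polymerase I subunit genes Polr1a and Polr1b, the box C/D particle genes Nop56, Nop58 and Fbl, the box H/ACA particle gene Dkc1 and the large subunit assembly gene Wdr12, 10 in all. They were chosen by name, with earlier results of these data known. Each gene was represented by its brightest probe set, by mean over all 6 arrays, among those annotated with exactly 1 gene symbol, a rule that covered 22180 genes. The listed genes met it in 9 of 10 cases, and those 9 were all bright enough to be tested. Fbl, the gene of fibrillarin, shared its probe set with another gene and was not analysed here.

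The cells were Ly6D- common lymphoid progenitors (CLPs), an early bone marrow stage upstream of B cells, T cells and natural killer cells. Mice were 6 to 8 weeks old, and the sort kept lineage-low cells that carried cKit, Sca and CD127 but neither Thy1.2 nor Ly6D. Control mice were OcnCre-;iDTR+/- (3 arrays) and mutant mice were OcnCre+;iDTR+/- (3 arrays), so that both carried iDTR, an inducible receptor for diphtheria toxin, and mutants alone carried Cre recombinase under the osteocalcin promoter. Both groups received toxin daily for 4 weeks, and cells were taken the day after the last dose. Whether a replicate is a mouse, a pool or a repeat is not given in the labels, so the p-values reflect the spread of these arrays, which may be technical. With 3 arrays a group the precision is limited. All levels are log2 probe set intensities, in which a difference of 1 is a doubling.

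A growing cell spends much of its transcription on ribosomes. RNA polymerase I copies the ribosomal RNA genes in the nucleolus, small nucleolar RNPs modify the transcript, a box C/D kind adding methyl groups and a box H/ACA kind making pseudouridine, and many assembly factors then build the small and large subunits. Myc is a transcription factor that, paired with Max, raises the expression of many of these genes, and lymphoid progenitors use it when they enter rapid division.

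The arrays and the sort were checked before the genes were compared. Mutant replicate 2 correlated at 0.935 to 0.954 with the others, which correlated at 0.973 to 0.989 among themselves (over probe sets, which are not independent). When the tested genes were divided into 10 groups by brightness, the brightest group had a median of −0.42 relative to the control mean on mutant replicate 2 and −0.18 on mutant replicate 3, against −0.0001 on mutant replicate 1, and 5 of the 9 genes lay in that group. The 7 measured CLP markers, Il7r, Dntt and Flt3 among them, averaged 8.58 to 8.70 in controls and 8.41 to 8.52 in mutants. The tissue label reads as stromal cells rather than progenitors. Of 6 measured bone and stromal markers Sp7 and Lepr lay below the cut for testing, while the list averaged 4.94 to 5.04 in controls and 4.84 to 5.11 in mutants, near that cut (4.84). Myeloid markers were bright and uneven: their mean over 8 genes was 9.53, 8.46 and 8.92 on the control arrays, in the order of their replicate numbers as throughout, and 9.66, 8.76 and 9.10 on the mutant arrays. T cell, later B cell and erythroid lists stood at 6.11 to 6.66, 7.31 to 7.58 and 6.59 to 7.06 in controls and at 5.74 to 6.36, 7.21 to 7.43 and 6.58 to 7.15 in mutants. The later B cell markers were uneven, with Ms4a1 and Vpreb1 below the cut. Over the 6 arrays Igll1 was at 10.43 to 11.23, Cd79a at 10.02 to 10.73 and Cd22 at 7.17 to 7.73.

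None of the 9 genes passed the test between mutant and control progenitors. In limma, which tests every gene with a spread shared across genes, their adjusted p-values ran from 0.68 to 0.981, and their control and mutant values overlapped in 9 of 9 cases. Over all 13308 genes tested, 0 (0%) passed an adjusted p of 0.05. At an unadjusted p under 0.05 the count over all genes was 801 lower (6.02%) and 267 higher (2.01%) in mutants, and the count among the 9 was 0. The mutant mean was lower for 5 of the 9 and higher for 4, with a median difference of −0.0081, beside 57.5% lower and a median of −0.043 over all genes tested. The 5 lower means became 2 without control replicate 1 and 2 without mutant replicate 2.

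**Figure D1:**
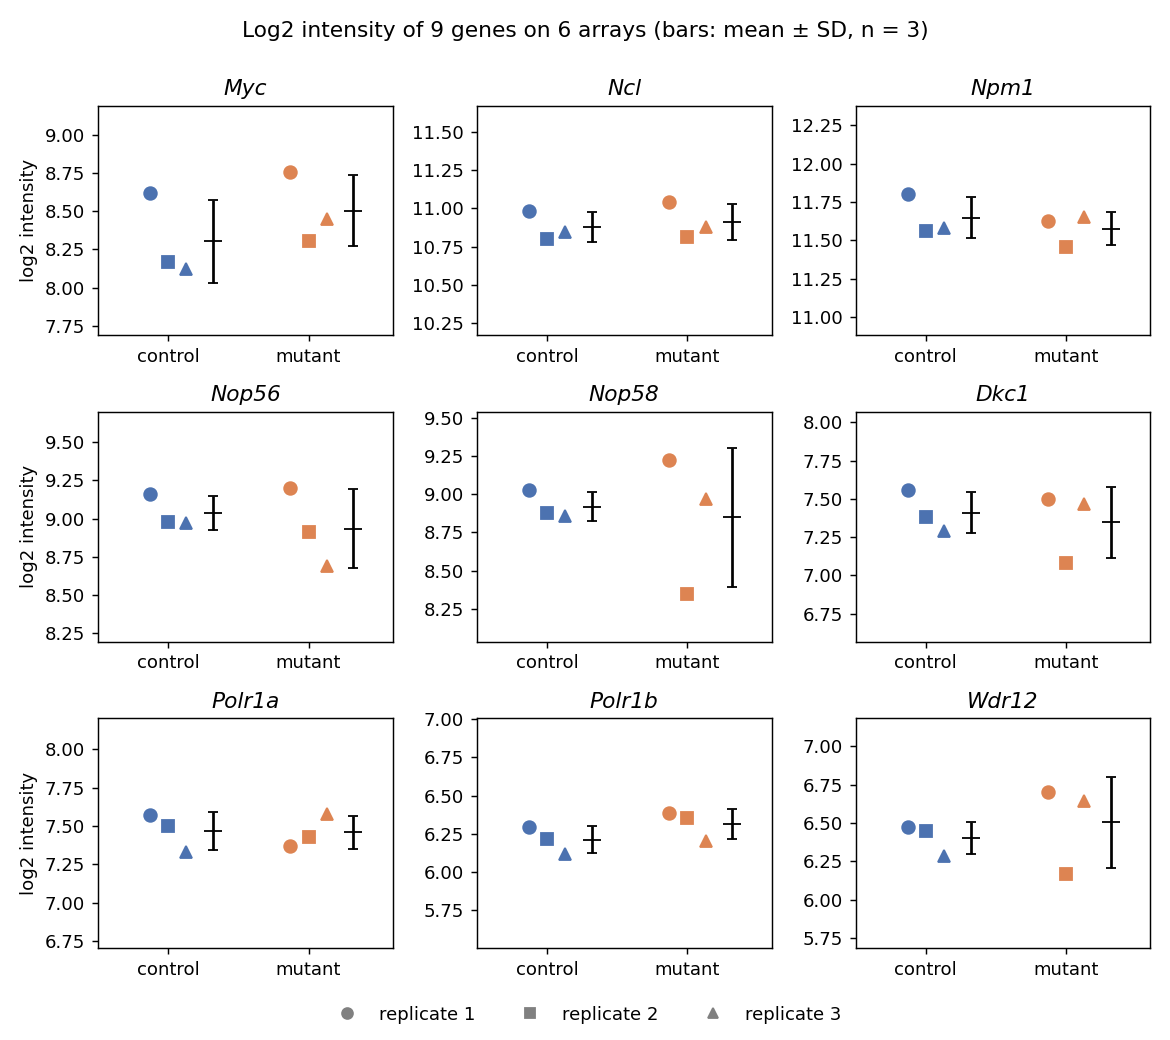
Log2 intensity (vertical axes, all panels to the same scale) of the 9 genes on 3 control and 3 mutant arrays, with marker shapes for the replicate numbers and bars for the mean ± SD (n = 3). Control replicate 1 is the highest control in 9 of 9 panels, mutant replicate 1 is the highest mutant in 7, and the groups overlap in every panel.

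Myc itself was at 8.62, 8.17 and 8.12 in controls and at 8.76, 8.30 and 8.45 in mutants. The first replicate was the highest in both groups, and control replicate 1 lay above mutant replicates 2 and 3. The means were 8.30 ± 0.27 and 8.50 ± 0.23 (SD, n = 3 each), a difference of 0.20 ± 0.18 (SE) with a 95% interval of −0.21 to 0.61 (adjusted p = 0.68 in limma). This was the largest difference in size among the 9 genes and corresponds to a 1.15-fold level. Leaving out control replicate 1 raised it to 0.36, while leaving out mutant replicate 1 or control replicate 3 brought it to 0.073 or 0.11. It stayed above 0 whichever of the 6 arrays was left out.

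Of the nucleolar genes, Ncl encodes nucleolin, which binds nascent ribosomal RNA and is a textbook Myc target. Ncl stood at 10.98, 10.80 and 10.85 in the controls and at 11.04, 10.81 and 10.88 in the mutants. These values had the same order in both groups, highest in replicate 1 and lowest in replicate 2. The difference was 0.033 ± 0.12 (SE; 95% interval −0.25 to 0.31; adjusted p = 0.924), and it changed sign without mutant replicate 1 (−0.033), without control replicate 2 (−0.0058) or with arrays centred on their medians (−0.030). Npm1 encodes nucleophosmin, a nucleolar chaperone that also helps carry ribosomal particles out of the nucleus. It was at 11.80, 11.56 and 11.58 in controls and at 11.62, 11.46 and 11.65 in mutants, where the control range held 2 of the mutant values. Its difference was −0.072 ± 0.12 (95% interval −0.36 to 0.22). A second, dimmer Npm1 probe set gave −0.22 ± 0.25, with mutant replicate 2 at 7.39 and the other arrays at 8.13 to 8.42.

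Promoter sequences are shown because many of these genes are known Myc targets, and Ncl was the one of the 8 whose values followed Myc most closely over the arrays. The RefSeq tables (GRCm38.p6) held start windows for 7 of the 10 listed genes, not for Myc, Npm1 or Fbl. In the 250 bases before each start, the canonical E-box CACGTG, the site Myc and Max bind, was found in 0 of 9 windows of these 7 genes, beside 6.02% of all 32851 windows of that length. The GC box GGGCGG, searched on both strands as GGGCGG or CCGCCC, was found in 5 of the 9 windows, 1 in each of Ncl, Nop56, Nop58, Polr1b and Wdr12, beside 32.7% of all windows. No E-box was found that a GC box could overlap. The matches are letters in a window, not sites shown to be bound. At a share of 6.02%, 9 windows, 3 of them from Wdr12, are too few to read anything from 0 matches. Bases after the start were not searched, so the 0 does not show that these genes lack the site. Shown are Ncl at chr1:86359456-86359705 on the minus strand, with 3 GC boxes, and the outermost of the 3 Wdr12 windows at chr1:60098501-60098750, also on the minus strand, with 2. Both are 5′ to 3′ and capitals mark the GC boxes.
Ncl: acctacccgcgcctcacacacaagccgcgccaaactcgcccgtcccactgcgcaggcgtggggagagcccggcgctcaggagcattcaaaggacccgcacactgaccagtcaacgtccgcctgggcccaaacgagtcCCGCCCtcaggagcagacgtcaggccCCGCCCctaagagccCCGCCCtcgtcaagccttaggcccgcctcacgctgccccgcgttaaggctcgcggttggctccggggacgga
Wdr12: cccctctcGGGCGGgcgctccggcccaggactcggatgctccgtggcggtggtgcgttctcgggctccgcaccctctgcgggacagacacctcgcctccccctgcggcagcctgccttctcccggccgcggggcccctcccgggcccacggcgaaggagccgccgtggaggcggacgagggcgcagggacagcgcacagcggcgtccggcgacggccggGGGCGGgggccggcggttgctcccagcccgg

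Of the RNA polymerase I genes, Polr1a encodes the largest catalytic subunit of RNA polymerase I and Polr1b its partner in the active centre. Polr1a was at 7.57, 7.50 and 7.33 in controls and at 7.37, 7.43 and 7.58 in mutants, so that the order of the replicates was opposite in the 2 groups. Its difference of −0.0081 ± 0.12 (SE) was the smallest of the 9, with a 95% interval of −0.29 to 0.28. Polr1b was at 6.30, 6.22 and 6.12 in controls and at 6.39, 6.35 and 6.20 in mutants, a difference of 0.10 ± 0.12 (95% interval −0.17 to 0.37). The third replicate was the lowest in both groups.

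The snoRNP genes varied more among mutants than among controls, but not they alone. Wdr12 did so too (range 0.54 in mutants and 0.19 in controls), and Ncl and Polr1b slightly. Myc, Npm1 and Polr1a had the wider range in controls. The share of all genes tested with a wider mutant range was not computed. Nop56 and Nop58 encode related core proteins of the box C/D particle, whose methyltransferase is fibrillarin. Nop58 was at 9.03, 8.88 and 8.86 in controls, a range of 0.17, and at 9.23, 8.35 and 8.97 in mutants, a range of 0.88. Mutant replicate 2 was thus the lowest array and mutant replicate 1 the highest. The Nop58 difference of −0.071 ± 0.22 (SE; 95% interval −0.57 to 0.43) became 0.18 when mutant replicate 2 was left out and −0.26 when mutant replicate 1 was. Nop56 was at 9.16, 8.98 and 8.97 in controls and at 9.20, 8.91 and 8.69 in mutants, with mutant replicate 3 the lowest, and differed by −0.10 ± 0.15 (95% interval −0.46 to 0.25). Leaving out mutant replicate 1 gave −0.23, and leaving out mutant replicate 3 gave 0.020. Its dimmer probe sets disagreed, at 0.090 ± 0.13 and −0.52 ± 0.42, and in the latter mutant replicate 2 was at 5.28 against 6.39 to 7.29 on the other arrays. Dkc1 encodes dyskerin, the pseudouridine synthase of box H/ACA particles and of telomerase. It was at 7.56, 7.38 and 7.29 in controls and at 7.50, 7.08 and 7.46 in mutants, lowest on mutant replicate 2, a difference of −0.064 ± 0.15 (95% interval −0.41 to 0.28) that was 0.070 without that array.

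Wdr12, which joins Pes1 and Bop1 in a complex needed to mature the large subunit's RNA, was at 6.47, 6.44 and 6.28 in controls and at 6.70, 6.16 and 6.64 in mutants. Here mutant replicates 1 and 3 lay above all controls and mutant replicate 2 below them. The difference was 0.10 ± 0.16 (SE; 95% interval −0.28 to 0.48), and without mutant replicate 2 it was 0.27 (adjusted p = 0.652 in limma).

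**Figure D2:**
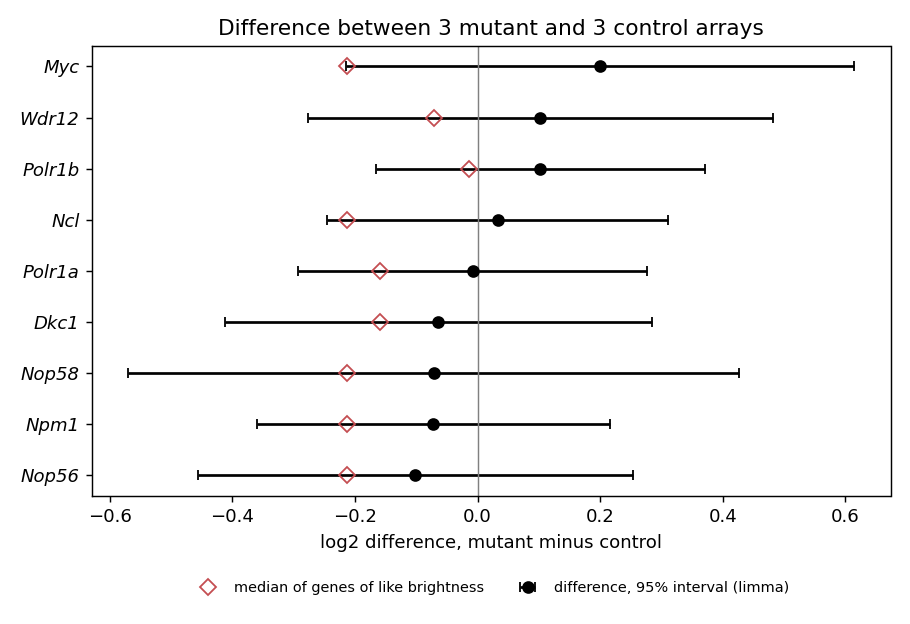
Log2 difference between mutant and control means for each of the 9 genes (points, with limma's 95% interval from 3 arrays per group) beside the median difference of the tested genes of like brightness, in 10 equal groups (open diamonds). The intervals all include 0 and together span −0.57 to 0.61, and the point lies to the right of the diamond for 9 of 9 genes.

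Set against genes of like brightness, the 9 lay on the higher side. The brightest of the 10 brightness groups, which holds Myc, Ncl, Npm1, Nop56 and Nop58, had a median difference of −0.21. The group with Dkc1 and Polr1a had −0.16, that with Wdr12 −0.071 and that with Polr1b −0.014. The difference of each of the 9 genes was above the median of its own brightness group. When the trend of brightness between arrays was removed by cyclic loess, 0 of the 9 had a lower mutant mean. Their median difference was 0.13, beside −0.0084 over all genes tested. With repeated quantile normalization 0 were lower and the median was 0.11, beside −0.0076 over all genes tested. Myc was at 0.38 after cyclic loess (unadjusted p = 0.0408, adjusted p = 0.723 in limma) and at 0.355 after repeated quantile normalization (adjusted p = 0.722), so it did not pass. Arrays centred on their medians gave 6 lower of 9.

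**Figure D3:**
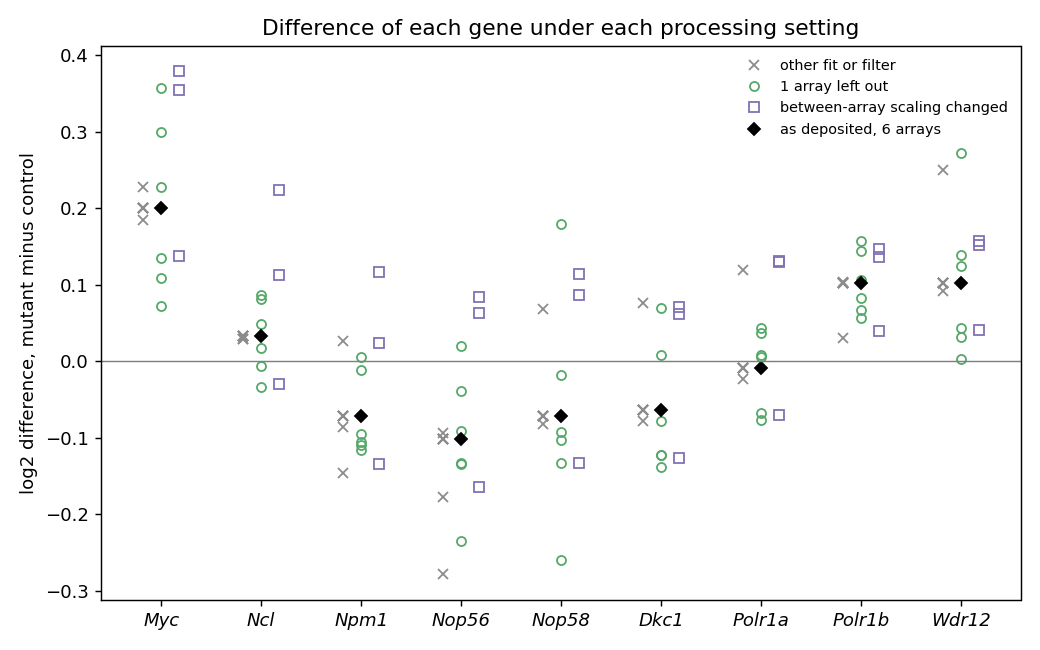
Log2 difference of each of the 9 genes (vertical axis) with the deposited values and 6 arrays (filled diamonds), with 1 array left out (circles), with another scaling between arrays (squares) and with other fits or filters (crosses). Myc, Polr1b and Wdr12 stay above 0 in every setting shown, and each of the other 6 genes crosses 0 in at least 1.

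The genes shared a course over the arrays that was not the course of the groups. Control replicate 1 was the highest control for 9 of 9 genes, beside 31.8% of all genes tested, and mutant replicate 1 the highest mutant for 7 of 9, beside 46.4%. Mutant replicate 2 was the lowest mutant for 6 of 9, beside 43.9%. As a median over the 9, relative to the control mean, the arrays stood at 0.11, −0.043 and −0.090 in the controls and at 0.16, −0.12 and 0.052 in the mutants. Over the 6 arrays Pearson's r was above 0 for 31 of the 36 pairs of genes (median 0.524). The share over other pairs of genes was not computed, so this is a description only. Genes on an array have its depth of signal and cell make-up in common, and the part of either was not tested. Pearson's r was highest for Nop58 and Dkc1 (0.927) and for Myc and Ncl (0.926), and lowest for Nop56 and Polr1a (−0.325).

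The tested genes whose values followed Myc most closely over the 6 arrays were Dstn (r = 0.996), an actin-severing protein gene, Cebpe (r = 0.990), a transcription factor gene of granulocyte maturation, Dtwd1 (r = 0.980), the coagulation factor gene F5 (r = 0.979) and the myeloid lectin gene Clec4a2 (r = 0.976). They are the top 5 among the tested genes, so the likeness is a description of 6 arrays only. In all, 109 tested genes had r above 0.9 with Myc, and Ncl (0.926) was 1 of them. Cebpe was at 7.29, 6.65 and 6.45 in controls and at 7.50, 6.70 and 7.04 in mutants. Like Myc it was highest in the first replicate of each group and lowest in control replicate 3. The myeloid marker mean given above had its highest values on the first replicates (9.66 and 9.53), and so had the erythroid marker mean, at 7.06, 6.59 and 6.76 in controls and 7.15, 6.58 and 6.97 in mutants. Of the erythroid genes only Car1 was highest on both of these arrays (8.81 and 9.04, against 6.98 to 8.39). Klf1 was highest on mutant replicate 3 (6.48), Epor on mutant replicate 2 (6.49) and Tfrc on control replicate 3 (8.84). Gata1 was highest on control replicate 1 (5.66), but on mutant replicate 1 (5.53) it lay below mutant replicate 2 (5.59). Of the 8 myeloid markers, Mpo, Elane, Prtn3, Ctsg and Itgam were highest on the first replicates, with Mpo at 11.45 and 11.36 there and at 9.48 to 10.68 on the others. The other 3 followed this in part. Lyz2 was highest on mutant replicate 1 (10.72) but lowest of the controls on control replicate 1 (10.14). Csf1r was highest on the first replicate within each group (6.60 and 6.39), but its value on mutant replicate 1 lay below all controls. S100a8 was highest on mutant replicate 3 (12.09). The lineage-low gate is meant to remove mature myeloid and erythroid cells. In these bulk samples fewer cells of a type and less RNA per cell cannot be told apart, and the part of either cell type in the Myc values was not tested.

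**Figure D4:**
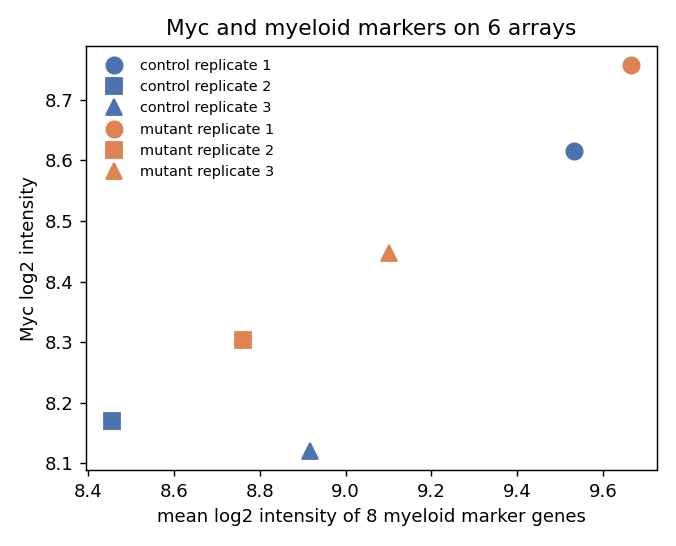
Myc log2 intensity (vertical axis) against the mean log2 intensity of 8 myeloid marker genes (horizontal axis) on 3 control and 3 mutant arrays, 1 point each. The first replicates of both groups lie at the upper right, with Myc at 8.62 and 8.76, and the other 4 arrays lie at 8.12 to 8.45.

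In the rest of the ribosome biogenesis pathway no gene passed the threshold either. Over 108 tested genes of 7 lists, the 9 left out, 0 passed, 78 had a lower mutant mean (72.2%, beside 57.5% of all genes) and the median difference was −0.087. Brighter genes were lower in general: with the dimmest 60% left out, all genes then tested had a median of −0.116. The 104 of the 108 that remained had a median of −0.087, and 74 of them were lower. The share of lower means over all genes under that filter was not computed, and the 104 were not matched for brightness. The part of brightness in the lower values was thus not tested. The mutant values lay wholly below the controls for 11 of the 108 (beside 9.99% of all genes) and wholly above for 2 (beside 5.4%). The lean to lower values depended on scaling and on single arrays. After cyclic loess 53 of the 108 were lower (median 0.020, beside −0.0084 over all genes tested), and 54 after repeated quantile normalization (median 0.0027, beside −0.0076). Without mutant replicate 2 there were 62 (median −0.029), and without mutant replicate 1 there were 90 (median −0.20). With arrays centred on their medians 91 were lower. Weighting arrays by their quality put 16 of the 108 and 0 of the 9 past the threshold, with 2960 of all genes tested.

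By role, the lower means and medians were as follows, with the 9 genes counted in their lists. For RNA polymerase I and its initiation factors 12 of 15 were lower (median −0.076), against 9 of 15 after cyclic loess (median −0.092) and 9 of 15 after repeated quantile normalization (median −0.10). The count was 10 to 12 with any 1 array left out, with medians below 0. For box H/ACA factors 5 of 5 were lower (median −0.23), 4 of 5 after cyclic loess (median −0.24) and 3 of 5 without mutant replicate 2 (median −0.083). For box C/D factors 9 of 10 were lower (median −0.12), against 4 of 10 after cyclic loess (median 0.055) and 5 of 10 without mutant replicate 2. The small subunit processome had 20 of 31 lower (median −0.058) and the large subunit factors 22 of 35 (median −0.056), and both medians turned above 0 after cyclic loess (0.055 and 0.067). Late maturation and export factors had 11 of 14 lower (median −0.15; −0.046 without mutant replicate 2), and nucleolar phosphoproteins 4 of 6 (median −0.074; 0.021 without that array and 0.039 after cyclic loess).

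**Figure D5:**
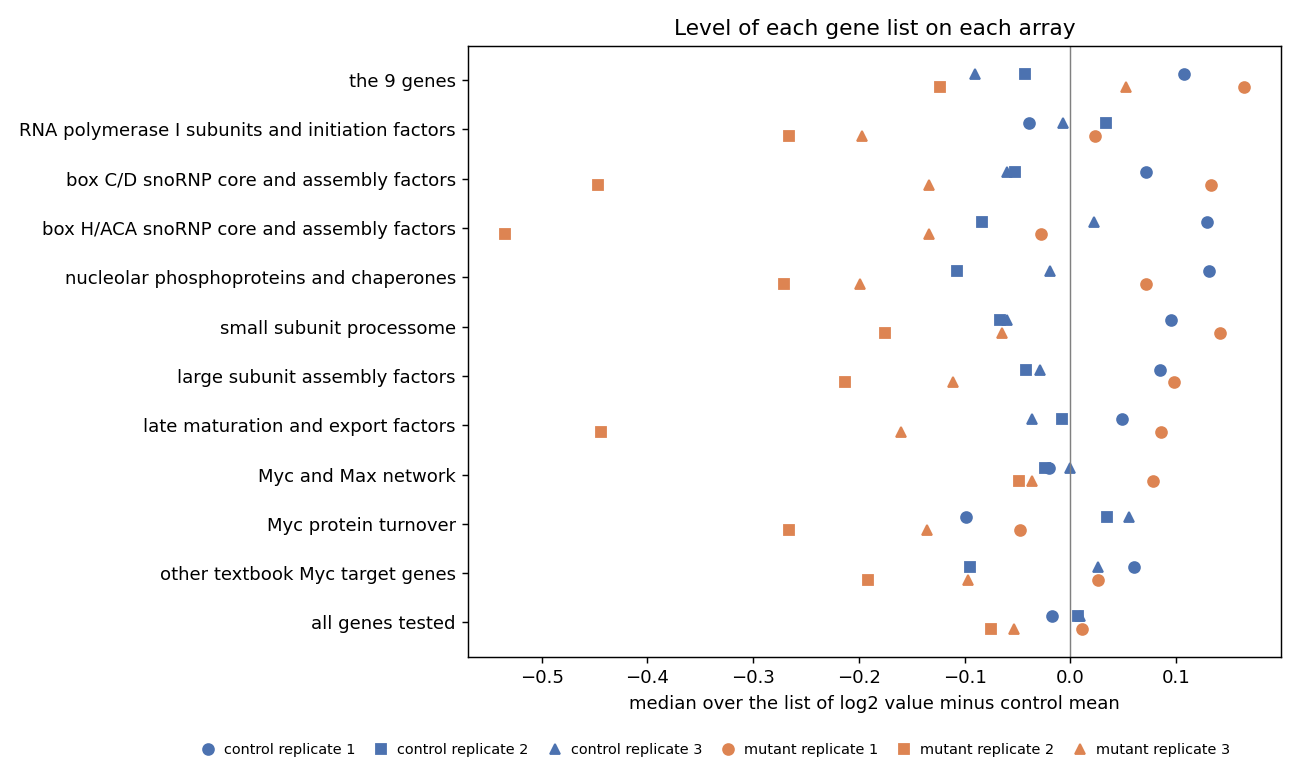
Each list's median log2 level relative to the mean of the controls (horizontal axis), for each of the 6 arrays, with the 9 genes at the top and all genes tested at the bottom; lists include the 9 genes where these belong. Mutant replicate 2 is the leftmost array in 11 of the 11 upper lines, and mutant replicate 1 lies among or to the right of the controls in all of them. In the bottom line, all genes tested, mutant replicate 2 is also leftmost (−0.075) and mutant replicate 1 lies to the right of the controls (0.011). Control replicate 1 is the lowest control there (−0.018) but the highest in the line of the 9 genes (0.11).

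The pathway genes with the lowest p in their lists mostly had lower mutant means, none past the threshold (adjusted p = 0.594 to 0.867 in limma). Nop16, a large subunit assembly gene, was at 8.33, 8.44 and 8.45 in controls and at 8.05, 7.63 and 7.87 in mutants. Its groups did not overlap, and the difference was −0.56 ± 0.14 (SE), the lowest unadjusted p of the genes in these lists (0.00379; adjusted p = 0.594 in limma). In the same list the RNA helicase gene Ddx18 was at 9.55, 9.14 and 9.12 in controls and at 9.51, 9.76 and 9.83 in mutants, a difference of 0.43 ± 0.16, and Ebna1bp2 differed by −0.36 ± 0.18 (−0.20 without mutant replicate 2). In the polymerase list Taf1d, a subunit of the promoter selectivity factor, differed by −0.77 ± 0.25, with mutant replicate 2 at 10.43 against 11.12 to 11.50 in the other mutants, and by −0.47 without it or −0.31 as the mean of its probe sets. The termination factor gene Ttf1 differed by −0.35 ± 0.13 and Taf1b by −0.35 ± 0.16 (−0.20 without mutant replicate 2), and the mutant values of all of these polymerase factors lay below the controls.

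Among box H/ACA factors Nhp2 differed by −0.53 ± 0.21, Gar1 by −0.23 ± 0.16 and Shq1 by −0.17 ± 0.12, which became −0.35, −0.083 and −0.11 without mutant replicate 2. Among box C/D assembly factors the values were −0.29 ± 0.14 for the ATPase gene Ruvbl1, −0.30 ± 0.17 for Pih1d1 and −0.31 ± 0.20 for Znhit3 (−0.14 and −0.066 for the latter pair without mutant replicate 2). The nucleolar scaffold gene Nolc1 differed by −0.37 ± 0.15 (−0.24 without mutant replicate 2), whereas the helicase gene Ddx21 (−0.24 ± 0.28) and Surf6 (−0.076 ± 0.17) changed sign without that array. In the small subunit processome Wdr3 was at −0.26 ± 0.11, Imp4 at −0.21 ± 0.12 and Pwp2 at −0.19 ± 0.12, each with mutant values below all controls. Of the late factors the GTPase gene Lsg1 was at −0.24 ± 0.12 and Sbds, which acts in late maturation of the large subunit, at −0.32 ± 0.21. The methylase gene Dimt1 was at −0.42 ± 0.28. Without mutant replicate 2 Sbds and Dimt1 were at −0.091 and −0.096.

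Partners and regulators of Myc did not pass either. In the Max network 5 of 10 tested genes were lower (median −0.029, and 0.090 after cyclic loess), and Mycn and Mycl were too dim to be tested. The Max partners that oppose Myc had Mxd1 at 0.27 ± 0.15 and Mxi1 at 0.18 ± 0.13, and Mxd3 at −0.27 ± 0.14 (SE; adjusted p = 0.594 to 0.635 in limma). Of 5 tested genes of Myc protein turnover 4 were lower (median −0.16, and 0.010 after cyclic loess). The deubiquitinase gene Usp28 was at 5.85, 6.00 and 6.02 in controls and at 5.62, 5.60 and 5.65 in mutants, so all mutants lay below all controls (−0.33 ± 0.11), while Huwe1 and Gsk3b were at −0.18 ± 0.11 and −0.16 ± 0.13 and turned above 0 after cyclic loess. Of 16 other textbook Myc targets 11 were lower (median −0.17, and 0.018 after cyclic loess), with the cell cycle kinase gene Cdk4 at −0.35 ± 0.14, the mitochondrial serine enzyme gene Shmt2 at −0.36 ± 0.20 (−0.13 without mutant replicate 3) and the transcription factor gene Tfap4 at 0.22 ± 0.11.

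Some of these genes carry snoRNA genes in their bodies, which are released from the host's introns. The RefSeq table placed 12 snoRNA genes inside 4 of the listed genes, without their strand, and 5 had a probe set of their own. Snora75, inside Ncl, was at 8.27, 7.94 and 8.21 in controls and at 8.67, 8.91 and 8.26 in mutants. Mutant replicate 3 lay below control replicate 1, and the difference was 0.47 ± 0.18 (SE; unadjusted p = 0.0337, adjusted p = 0.594 in limma), beside 0.033 for Ncl itself. Snord82, also inside Ncl, differed by −0.17 ± 0.29, Snord110 inside Nop56 by 0.090 ± 0.38 and Snord11 inside Nop58 by −0.072 ± 0.18. Leaving out mutant replicate 2 gave −0.0024 for Snord82, 0.48 for Snord110 and 0.080 for Snord11, and leaving out mutant replicate 1 gave −0.49, −0.029 and −0.20. Snord110 was also below 0 without control replicate 2 (−0.16) or mutant replicate 3 (−0.18), and Snord11 was above 0 after cyclic loess (0.018). Snord70 inside Nop58 was too dim to be tested, at 2.96 in controls and 2.99 in mutants on average.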

How the data were processed

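Total RNA was taken up in Trizol, turned into cDNA by NuGEN Ovation amplification and biotin-labelled, per the labels' protocols. The authors deposited log2 intensities per probe set, for which the submitters' processing notes name RMA; the software version, annotation and genome build are not given in the labels or files used. RMA gives no detection call and scales the arrays to one another, so differences in total RNA are not visible. The deposited values still differed in their distributions. On mutant replicate 2 the dimmest of the 10 brightness groups stood at 0.15 and the brightest at −0.42, relative to the control mean. Repeating the quantile normalization changed the lower means among the 9 genes from 5 to 0. Of 41345 probe sets, 23521 had 1 gene symbol in the platform table, 1814 several and 16010 none; only the first kind was named. Of 22180 genes the dimmest 40% (under 4.84) were set aside, which left 13308. Groups were compared with lmFit and eBayes (limma 3.58.1, R 4.3.3), 2-sided, with Benjamini-Hochberg adjustment over all genes tested and a threshold of 0.05; the fit was tested on simulated data. Lists are described by counts and medians, without a set test.

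The 10 genes and the lists were chosen with earlier results of these data known. Named were the listed genes, the 3 other genes of each list with the lowest p, the 5 genes most like Myc and the snoRNA genes inside the listed genes. The alternatives were no filter or a stricter one (60%), the mean of a gene's probe sets or each alone, a trended robust prior, array weights, an unmoderated test, other scalings (repeated quantile, cyclic loess, median centring), the replicate number as a block, the Y-linked gene Eif2s3y as a covariate, and leaving out each array. Figures were drawn with matplotlib 3.10.9.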

Additional observations from a re-analysis of the deposited data

How the results depend on the processing

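The 9 genes had 18 common settings, and 0 passed the adjusted threshold in any (lowest adjusted p 0.0769 in limma, for Nop56 with array weights). Myc (0.073 to 0.38), Polr1b (0.031 to 0.16) and Wdr12 (0.0036 to 0.27) kept a higher mutant mean in all of them. With array weights 2960 genes passed over all tested, 1 of the 9 had a lower mutant mean, and the differences were 0.076 for Dkc1, 0.069 for Nop58, 0.026 for Npm1 and 0.12 for Polr1a. After cyclic loess 0 of the 9 were lower, with a median of 0.13 and values of 0.071 for Dkc1, 0.084 for Nop56, 0.11 for Nop58, 0.12 for Npm1 and 0.13 for Polr1a. After repeated quantile normalization 0 were lower, with 0.062 for Dkc1, 0.064 for Nop56, 0.087 for Nop58, 0.023 for Npm1 and 0.13 for Polr1a. Median centring gave −0.030 for Ncl, and the second Nop56 probe set gave 0.090. The cause was not tested.

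Leaving out 1 array at a time, 0 to 4 genes passed over all tested (4 without mutant replicate 1, 1 without mutant replicate 2), 2 to 5 of the 9 were lower, and their median ran from −0.077 to 0.082. The range was −0.14 to 0.070 for Dkc1, −0.033 to 0.087 for Ncl, −0.23 to 0.020 for Nop56, −0.26 to 0.18 for Nop58, −0.12 to 0.0051 for Npm1 and −0.077 to 0.044 for Polr1a. The labels do not say that a replicate number pairs samples, so the numbers were not taken as pairs. Deviations of arrays with the same replicate number correlated at 0.132, 0.203 and −0.133. The 0.203 was the highest between any control and mutant array, while control replicate 1 correlated best with mutant replicate 3 (0.198). With 3 arrays a group such values cannot decide whether the arrays are paired. With the replicate block 0 genes passed and Myc differed by 0.20 (adjusted p = 0.641 in limma). The 3 arrays a group, without detection calls, limit what can be seen in dim genes.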
